A study of Mus musculus with 21 samples.

Results

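NRF2, the protein made from Nfe2l2, is the transcription factor that switches on much of the cell's antioxidant defense. The 10 genes followed here were Nfe2l2 itself, 7 genes that NRF2 is known to drive (Hmox1, Slc7a11, Nqo1, Gclm, Gclc, Txnrd1 and Srxn1) and the chains of ferritin, Fth1 and Ftl1. They were listed by name, with earlier results of these data known, from 54123 annotated genes with an entry in the tables. All 10 passed the filter on low counts in every fit, which kept 25002 genes in neutrophils, 25917 in tubular cells and 31769 over all libraries.

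In unstressed cells NRF2 is bound by KEAP1 and degraded. Oxidants and electrophiles modify KEAP1, NRF2 accumulates, pairs with small MAF proteins and binds the antioxidant response element in its targets, where BACH1 acts as a competing repressor until heme removes it. The targets cover heme breakdown (Hmox1, which frees iron, carbon monoxide and biliverdin), cystine import and glutathione synthesis (Slc7a11, Gclc, Gclm), reduction of thiols and peroxiredoxins (Txnrd1, Srxn1) and quinone reduction (Nqo1). Ferritin stores the iron that heme breakdown frees, in shells of heavy (Fth1) and light (Ftl1) chains. The proximal tubule is the nephron segment that suffers most in ischemia, and NRF2 and heme oxygenase are well known in that setting. Ferritin and Slc7a11 are also controlled by other routes, the first through iron-regulatory proteins and the second through ATF4.

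RNA sequencing covered polymorphonuclear neutrophils (PMNs) that the labels assign to blood and renal tubular epithelial cells (TECs) from kidney, all from wild-type mice, 24 hours after surgery. The study's methods give male C57BL/6 animals aged 8 to 12 weeks. Ischemia-reperfusion injury (IRI) was made by clamping the renal pedicles for 32 minutes, and sham animals had the operation without clamps. Remote ischemic preconditioning (RIPC) was 3 inflations of a cuff on a hind limb, each lasting 5 minutes, about 15 minutes earlier, and control animals had the cuff at low pressure. TECs were taken with beads against prominin-1, a surface protein of the proximal tubule. The labels name no mutation or drug in any group. The 8 groups were PMN Sham Control (n = 2), PMN Sham RIPC (n = 3), PMN IRI Control (n = 2), PMN IRI RIPC (n = 3), TEC Sham Control (n = 3), TEC Sham RIPC (n = 3), TEC IRI Control (n = 2) and TEC IRI RIPC (n = 3). The study calls its libraries biological replicates, and the labels do not tie them to single animals, so p-values here measure the spread between these samples.

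The 21 libraries held between 20881334 and 51624602 reads. Neutrophil markers summed to 6165 to 35399 CPM (reads of a gene scaled to library size) in PMNs and to 1.72 to 109 CPM in TECs, so neutrophil RNA was high in every library labelled PMN and low in every library labelled TEC. The PMN libraries also held RNA of other cells. The 10 proximal tubule markers summed to 1407 to 12351 CPM in sham PMNs and to 621 to 1060 CPM in IRI PMNs, and 8 macrophage markers to 2876 to 9466 CPM and 832 to 1905 CPM in the same order. The tissue source of the PMNs rests on the labels and was not tested. Proximal tubule markers in TECs summed to 11470 to 21480 CPM after sham surgery and to 3054 to 9475 CPM after IRI. Library TEC Sham Control replicate 1 stood apart. Its tubular injury markers summed to 10230 CPM against 1209 to 2698 CPM in the other sham TECs, and Havcr1, the gene of kidney injury molecule 1, read 78.9 CPM in it against at most 1.02 CPM in the others. In IRI TECs Havcr1 read 78.4 to 716 CPM. The library is labelled sham, whether its label was swapped was not tested, and results that move most with it are given with and without it. Among IRI TECs, TEC IRI RIPC replicate 3 held the lowest Havcr1 and the lowest tubular injury sum, 5413 CPM against 10550 to 16517 CPM. Its proximal tubule markers summed to 9475 CPM against 3054 to 4368 CPM. Krt20, also an injury marker, was highest in it, at 1458 CPM. Whether that library was less injured was not tested.

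**Figure D1:**
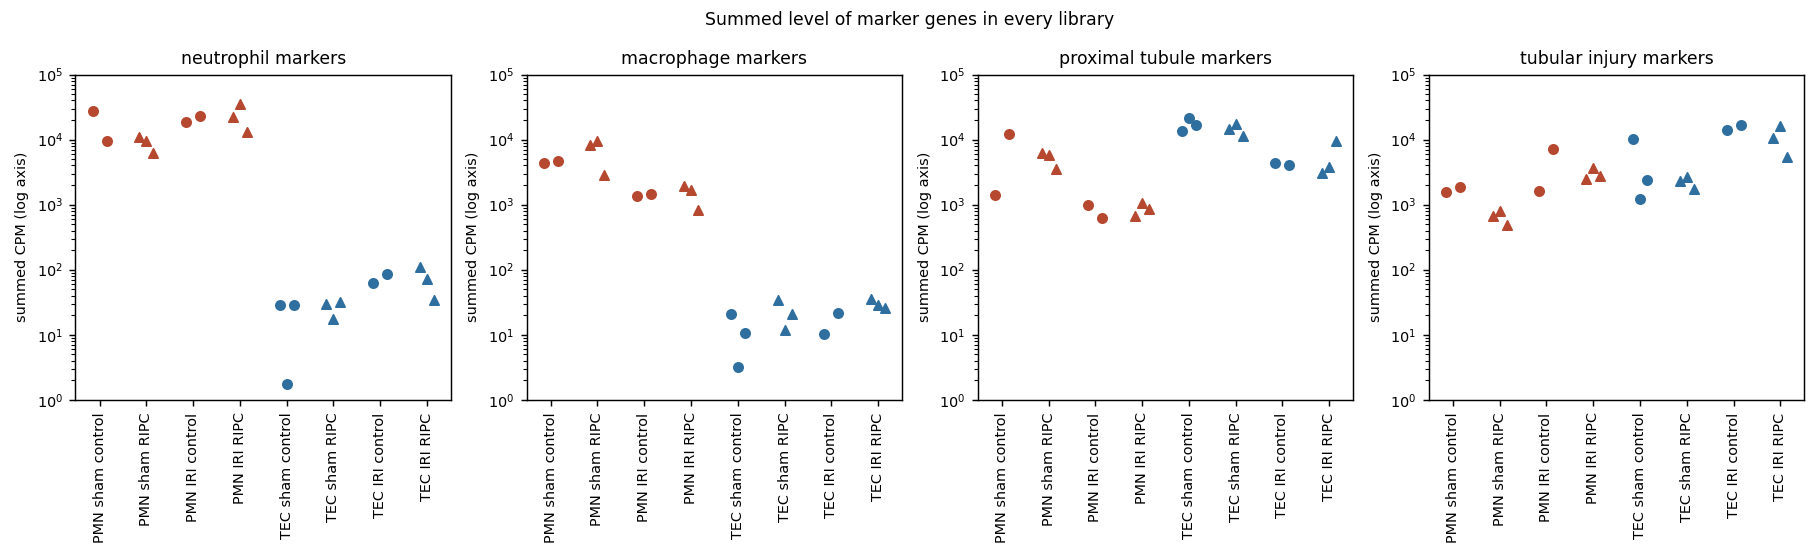
Summed CPM of marker genes on a log axis, with each point a library, PMNs in red, TECs in blue, circles for control and triangles for RIPC. Proximal tubule and macrophage markers in PMNs are lower after IRI than after sham surgery in all 5 libraries against all 5, and 1 TEC Sham Control library reaches 10230 CPM for the tubular injury markers.

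Promoter sequences, each running from 250 bases before to 50 bases after a start site, were found in RefSeq (GRCm38.p6) for 8 of the 10 genes, as 11 promoters. Those of Srxn1 and Slc7a11 are printed because these genes passed the test in TECs and in PMNs, respectively. Capitals mark matches on either strand to the core of the antioxidant response element (TGACNNNGC or TGAGNNNGC) or to the AP-1 motif (TGAGTCA), and the latter can overlap the former. Srxn1 lies at chr2:152105274-152105573 on the plus strand and Slc7a11 at chr3:50443564-50443863 on the minus strand, and both are written 5′ to 3′ along the gene.
Srxn1: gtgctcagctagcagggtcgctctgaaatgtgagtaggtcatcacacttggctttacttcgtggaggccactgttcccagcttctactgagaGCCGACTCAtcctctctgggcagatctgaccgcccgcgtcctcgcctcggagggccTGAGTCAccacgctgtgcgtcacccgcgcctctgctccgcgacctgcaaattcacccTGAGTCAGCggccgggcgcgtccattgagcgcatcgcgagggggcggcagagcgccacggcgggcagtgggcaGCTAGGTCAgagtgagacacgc
Slc7a11: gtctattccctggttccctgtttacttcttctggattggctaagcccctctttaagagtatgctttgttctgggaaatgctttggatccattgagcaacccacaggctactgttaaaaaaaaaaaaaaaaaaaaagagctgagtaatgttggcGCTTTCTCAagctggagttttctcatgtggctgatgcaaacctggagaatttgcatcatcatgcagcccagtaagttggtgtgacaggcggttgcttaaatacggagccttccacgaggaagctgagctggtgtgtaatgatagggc
The Srxn1 window held 3 matches to the core and 2 to AP-1, 1 of each kind sharing the same bases at position -45 from the start site. The Slc7a11 window held 1 match, on the opposite strand, at position -97. The core was matched in 5 of the 11 promoters, those of Nfe2l2, Srxn1, Slc7a11, Gclm and 1 of the 3 of Txnrd1. It was also matched in 27.8% of all 32851 promoters in the table, and the AP-1 motif in 5.2%. A match is a stretch of letters and was not tested as a binding site. The genes themselves span 152105516 to 152111376 of chromosome 2 (Srxn1, plus strand), 49892526 to 50443614 of chromosome 3 (Slc7a11, minus strand) and 75093621 to 75100589 of chromosome 8 (Hmox1, plus strand) in GRCm38.

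The members differed in level by orders of magnitude. In TPM, which also scales reads to transcript length, Fth1 and Ftl1 were among the 38 highest genes in every library. In sham PMNs the median was 7589 TPM for Ftl1 and 5550 TPM for Fth1, and their ranges overlapped. Next came Gclm (57.7 TPM), Nfe2l2 (38.2 TPM), Hmox1 (22.1 TPM) and Nqo1 (15.5 TPM), then Slc7a11 (8.33 TPM), Txnrd1 (6.75 TPM) and Gclc (2.74 TPM), with neighbors in this order overlapping. Srxn1 was last at 0.0384 TPM. In sham TECs Ftl1 (13477 TPM) again led Fth1 (7569 TPM), followed by Gclm (131 TPM), and Slc7a11 was last at 3.21 TPM. After IRI Fth1 passed Ftl1 in both cell types, at medians of 11990 and 6259 TPM in PMNs and 11990 and 8932 TPM in TECs.

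**Figure D2:**
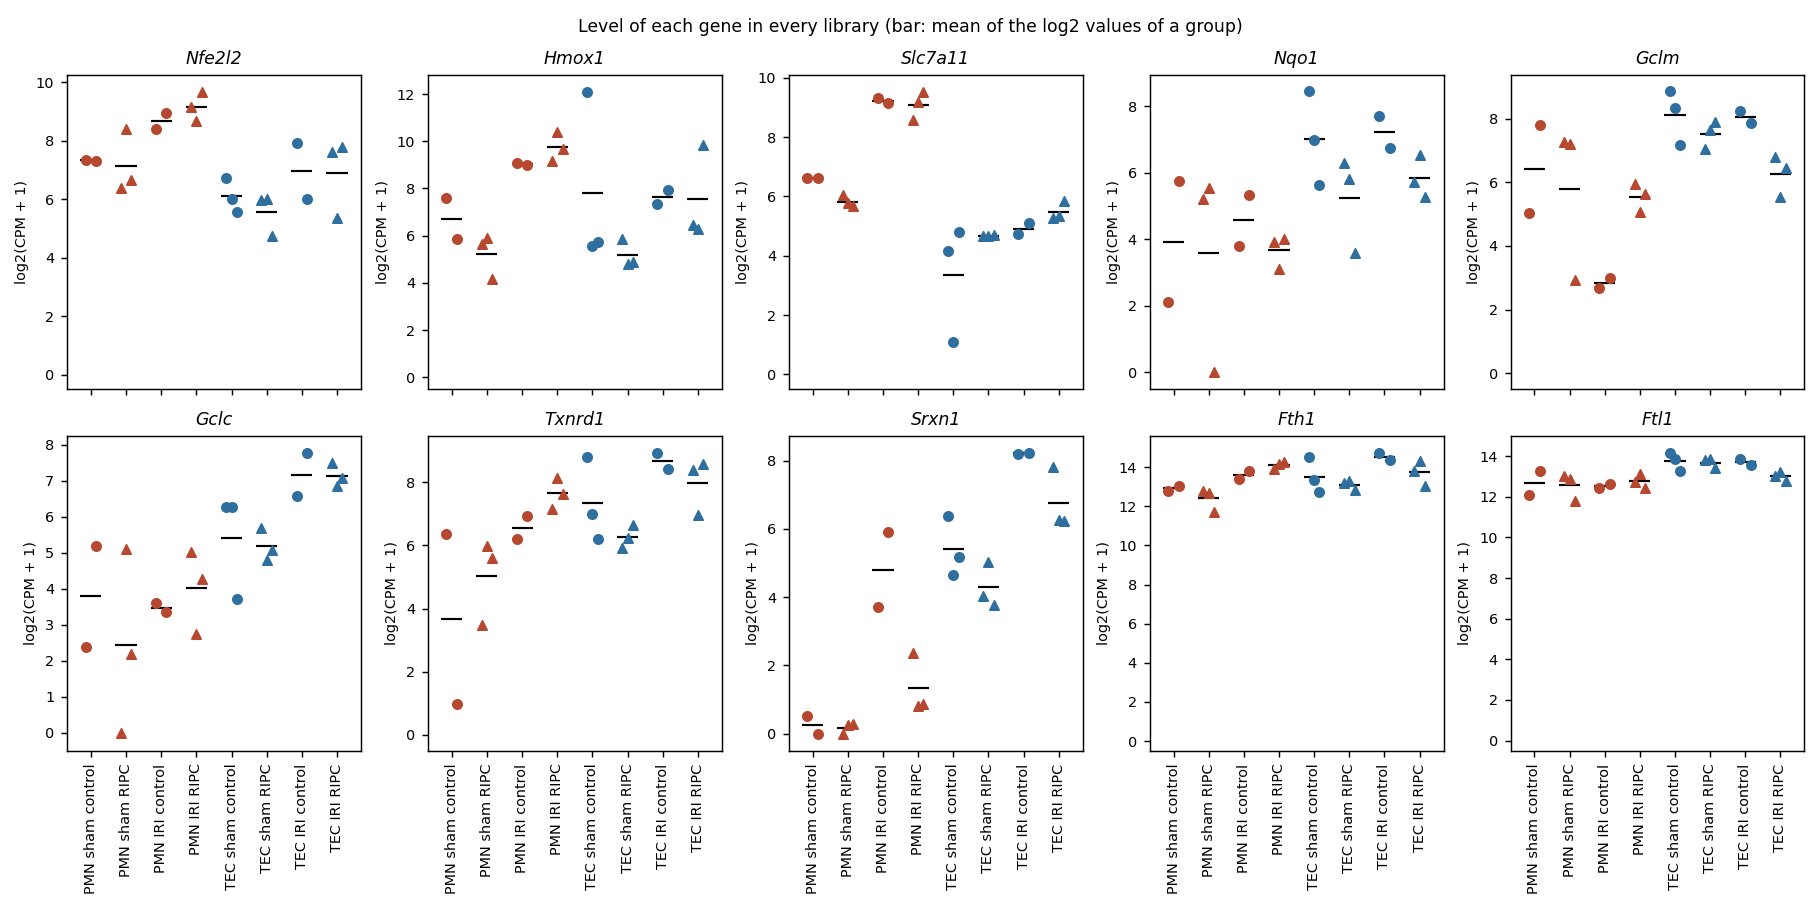
Level of each of the 10 genes as log2(CPM + 1) in every library, with PMNs in red, TECs in blue, circles for control, triangles for RIPC and a bar at the mean of a group. Hmox1 and Slc7a11 in PMNs are higher in all 5 IRI libraries than in any sham library, and the Hmox1 panel shows the single TEC Sham Control library at 4386 CPM.

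The first comparison asked how the genes differed 24 hours after IRI from sham surgery in PMNs, averaged over control and RIPC animals. With edgeR Hmox1 and Slc7a11 rose, and none of the 10 fell past the threshold. With DESeq2 Srxn1 also passed as higher (adjusted p = 0.000107) and Gclm as lower (log2 fold change -2.80, adjusted p = 0.0268). DESeq2 called 1955 of the 25002 genes here. With edgeR 2 of 10 members were thus called at an adjusted p under 0.05, against 0.416% of all 25002 genes tested. At an unadjusted p under 0.05 were 6 members, 5 higher and 1 lower, against 11.8% of all genes. The median log2 fold change of the members was 1.35, and that of all genes was -0.01. In bulk RNA, fewer cells of a type and less RNA per cell cannot be told apart.

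Hmox1 encodes heme oxygenase-1, the enzyme that opens the heme ring. It read 192 and 57 CPM in PMN Sham Control and 49.7, 58.1 and 17 CPM in PMN Sham RIPC. It read 543 and 511 CPM in PMN IRI Control and 576, 1335 and 807 CPM in PMN IRI RIPC. All 5 IRI libraries lay above all 5 sham libraries. The log2 fold change was 3.24 ± 0.51 (SE), a 9.47-fold rise, with an adjusted p of 0.0393. This call was fragile: leaving out 1 library at a time kept the fold change between 2.99 and 3.82, but the adjusted p passed 0.05 in 8 of 10 such fits and reached 0.108 without PMN IRI RIPC replicate 2.

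Slc7a11 encodes the cystine carrier xCT, which brings in the cystine from which glutathione is built. Its counts in PMN Sham Control were 97 and 98.2 CPM and in PMN Sham RIPC 64.4, 53.6 and 50 CPM. After IRI they were 631 and 563 CPM in control animals and 380, 581 and 742 CPM in RIPC animals. The lowest IRI value was thus well above the highest sham value. Slc7a11 rose by 2.96 ± 0.29 (SE) on the log2 scale, 7.80-fold, with an adjusted p of 0.00877, the smallest among the members. Of the 10 fits that left out a library, the one without PMN IRI RIPC replicate 2 lost the call, at an adjusted p of 0.0501. The contrast of the control groups alone, 2 libraries a side within the fit of all 10, also lost it (log2 fold change 2.61, adjusted p = 0.378). In that contrast 0% of all genes passed with edgeR.

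The reads of Slc7a11 fell on different transcripts in the sham and IRI libraries. Salmon assigned 0.188% to 47% of them to protein-coding transcripts in sham PMNs and 44.7% to 76.6% in IRI PMNs, the rest mainly to Slc7a11-202, an annotated retained-intron transcript of 3162 bases. On the coding transcripts alone the sham PMN libraries held 45.6, 26.2, 27.1, 0.842 and 0.0938 CPM. The IRI PMN libraries held 386, 352, 170, 357 and 568 CPM. The groups did not overlap in coding transcripts either. These transcript values are estimates from short reads and were not tested.

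Srxn1 encodes sulfiredoxin, which restores overoxidized peroxiredoxins. In sham PMNs it was at the edge of detection, with 11, 0, 0, 4 and 4 reads (0.447, 0, 0, 0.182 and 0.208 CPM), where 3 reads equal 0.122 to 0.156 CPM. It read 12.1 and 58.5 CPM in PMN IRI Control and 4.16, 0.756 and 0.82 CPM in PMN IRI RIPC. All IRI values were above all sham values, and the control animals after IRI were above the RIPC animals. The fitted log2 fold change of 5.53 ± 1.73 (SE) did not pass (adjusted p = 0.315), and because it is set against almost no reads its size depends on the model.

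Fth1 was also higher in each IRI library than in any sham library. It read 7160, 8370, 7087, 6556 and 3391 CPM in the 5 sham PMN libraries and 10613, 14353, 15384, 18052 and 19778 CPM in the 5 IRI libraries. The log2 fold change was 1.15 ± 0.21 (SE), with an adjusted p of 0.0770, and without PMN Sham RIPC replicate 3 it was 1.01 with an adjusted p of 0.0216. In all, 4 members (Hmox1, Slc7a11, Srxn1 and Fth1) did not overlap between the groups and were higher after IRI, against 3.47% of all genes.

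Nfe2l2 read 161 and 159 CPM in PMN Sham Control, 82.7, 339 and 99.6 CPM in PMN Sham RIPC, 336 and 489 CPM in PMN IRI Control, and 565, 405 and 821 CPM in PMN IRI RIPC. A single overlap, PMN Sham RIPC replicate 2 at 339 CPM above PMN IRI Control replicate 1 at 336 CPM, kept the groups from separating. The log2 fold change was 1.56 ± 0.46 (SE, adjusted p = 0.278). Txnrd1, the cytosolic thioredoxin reductase, ranged from 0.958 to 82 CPM in sham and from 72.1 to 280 CPM in IRI PMNs, with a log2 fold change of 1.77 ± 0.95 (SE, adjusted p = 0.454). Without PMN Sham Control replicate 1, its highest sham library, the value became 4.5 with an adjusted p of 0.0373.

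The glutathione synthesis genes and Nqo1 did not separate in PMNs. Gclm, the modifier subunit of glutamate-cysteine ligase, read 32 and 222 CPM in PMN Sham Control and 153, 147 and 6.69 CPM in PMN Sham RIPC, against 5.42 and 7.05 CPM in PMN IRI Control and 60.4, 32.8 and 49 CPM in PMN IRI RIPC. Its log2 fold change was -2.74 ± 0.88 (SE, adjusted p = 0.332). Gclc, the catalytic subunit, ranged from 0 to 35.8 CPM in sham and from 5.74 to 31.6 CPM in IRI PMNs, and Nqo1, the quinone reductase, from 0 to 52.6 CPM and from 7.65 to 39.4 CPM. Their log2 fold changes were -0.21 ± 1.46 (SE) and -0.64 ± 1.41 (SE). Ftl1 was nearly level, at 3587 to 9867 CPM in sham and 5536 to 8797 CPM in IRI PMNs (log2 fold change -0.09 ± 0.29 SE).

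Other RNA moved with this comparison. All 10 proximal tubule markers and all 8 macrophage markers had log2 fold changes below 0 in IRI PMNs, at medians of -2.55 and -2.05, while 9 of 10 neutrophil markers were above 0 at a median of 1.46, and none of these markers passed the adjusted threshold. At most 1 of 8 macrophage markers and no proximal tubule marker was at 0 in any PMN library. The part of this in the results for the members was not tested.

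**Figure D3:**
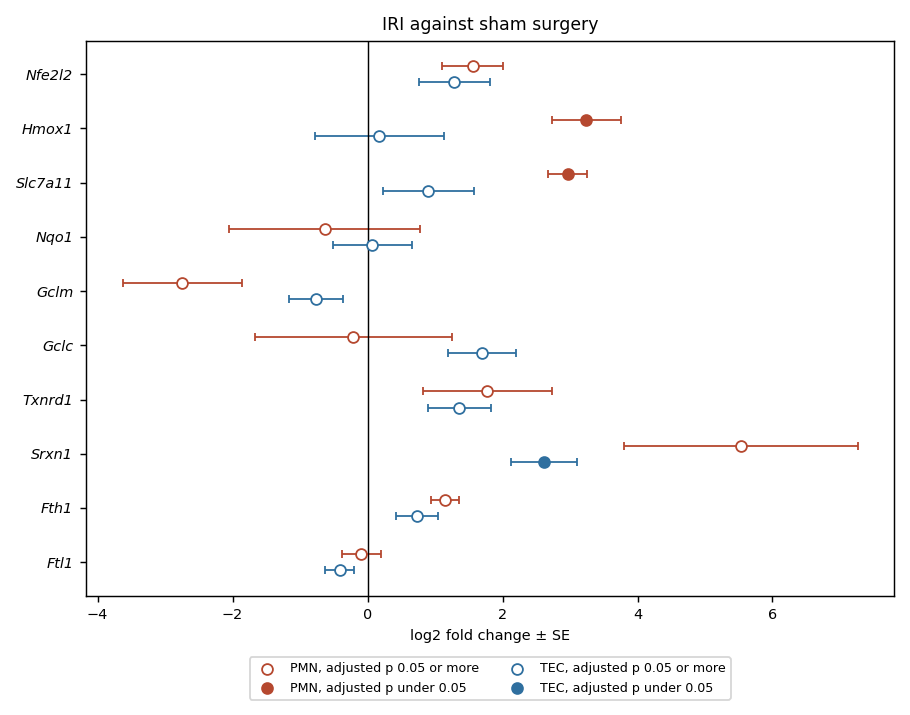
Log2 fold change of IRI against sham surgery for each gene, with bars of 1 SE, PMNs in red and TECs in blue, and filled points for an adjusted p under 0.05. Hmox1 (3.24) and Slc7a11 (2.96) are filled in PMNs and Srxn1 (2.61) in TECs, and Gclm lies below 0 in both cell types.

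The same comparison was made in TECs. With edgeR Srxn1 rose, and no other member passed, and with DESeq2 Gclc also passed as higher (log2 fold change 1.82, adjusted p = 0.0133). DESeq2 called 2234 of the 25917 genes here. The edgeR call made 1 of 10 members at an adjusted p under 0.05, against 1.40% of all 25917 genes. At an unadjusted p under 0.05 were 5 members, all higher, against 15.0% of all genes. The median log2 fold change of the members was 0.82, and that of all genes was 0.15.

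Srxn1 read 81.8, 24 and 35.4 CPM in TEC Sham Control and 15.4, 31.8 and 12.7 CPM in TEC Sham RIPC. It read 292 and 297 CPM in TEC IRI Control and 222, 76.2 and 74.3 CPM in TEC IRI RIPC. The groups overlapped only through TEC Sham Control replicate 1, whose 81.8 CPM was above the lower values of TEC IRI RIPC. Srxn1 rose by 2.61 ± 0.49 (SE) on the log2 scale, 6.10-fold, with an adjusted p of 0.0189. The adjusted p ran from 0.00663 to 0.0719 when each library was left out, and the call was lost in 4 of 11 fits, each without a sham library: TEC Sham Control replicate 2 or 3, or TEC Sham RIPC replicate 1 or 3. Without TEC Sham Control replicate 1 the value was 2.93 (adjusted p = 0.0123).

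Gclc was the only member whose TEC groups did not overlap, at 76.6, 76.5 and 12.1 CPM in TEC Sham Control, 50.2, 27.1 and 33.1 CPM in TEC Sham RIPC, 94.4 and 218 CPM in TEC IRI Control and 178, 115 and 135 CPM in TEC IRI RIPC. All 5 IRI libraries were above the 6 sham libraries, a pattern shown by 1.59% of all genes in that direction. Its log2 fold change was 1.69 ± 0.50 (SE, adjusted p = 0.130). Gclm, its partner, went the other way, from 132 to 463 CPM in sham to 45.2 to 303 CPM in IRI TECs (log2 fold change -0.76 ± 0.40 SE, adjusted p = 0.387). As a ratio of TPM within a library, Gclc to Gclm was 0.0187 to 0.122 in sham and 0.0577 to 0.551 in IRI TECs. Its median was 0.0384 and 0.319 in the same order, and the ranges overlapped.

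Txnrd1 read 442, 128 and 72.2 CPM in TEC Sham Control, 59.4, 74.1 and 100 CPM in TEC Sham RIPC, 485 and 344 CPM in TEC IRI Control and 331, 124 and 382 CPM in TEC IRI RIPC. Here too TEC Sham Control replicate 1 held the highest sham value. The log2 fold change was 1.36 ± 0.47 (SE, adjusted p = 0.205) with it and 1.86 (adjusted p = 0.0472) without it.

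Hmox1 in TECs depended on that library even more. It read 4386, 46.2 and 52.9 CPM in TEC Sham Control, 56.5, 26.6 and 28.4 CPM in TEC Sham RIPC, 161 and 245 CPM in TEC IRI Control and 86.7, 77.8 and 923 CPM in TEC IRI RIPC. Apart from the library at 4386 CPM, every IRI value was above every sham value. The log2 fold change was 0.18 ± 0.96 (SE, adjusted p = 1.00) with all libraries and 2.59 (adjusted p = 0.0736) without TEC Sham Control replicate 1. The same library held the highest sham TEC value of every member except Slc7a11.

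Nfe2l2 read from 25.6 to 104 CPM in sham and from 39.5 to 241 CPM in IRI TECs, with a log2 fold change of 1.29 ± 0.52 (SE, adjusted p = 0.270). Its reads, too, were spread over transcripts. The coding transcript Nfe2l2-201 took 41.5% to 95.5% of them in sham TECs and 8.22% to 52% in IRI TECs, and the rest went to Nfe2l2-202, a processed transcript of 1447 bases with no annotated protein. In CPM of the coding transcript the sham TECs held 43.2, 52.6, 40.8, 48.9, 60.7 and 16.7, and the IRI TECs 63.4, 5.34, 100, 13.6 and 17.8. The coding values of the sham and IRI groups overlapped. TEC IRI Control replicate 1 (63.4 CPM) and TEC IRI RIPC replicate 1 (100 CPM) were above every sham library, and the other 3 IRI libraries, at 5.34 to 17.8 CPM, were not. In PMNs the coding transcript held 34.2 to 256 CPM in sham and 230 to 655 CPM in IRI libraries.

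Slc7a11 was low in TECs, at 1.12 to 27 CPM in sham and 25.3 to 57 CPM after IRI (log2 fold change 0.90 ± 0.67 SE, adjusted p = 0.591). The retained-intron transcript took 65.4% to 99.6% of its reads in the 10 TEC libraries with at least 100 reads. Coding transcripts held 0 to 0.591 CPM in sham and 0.136 to 17.4 CPM in IRI TECs. Fth1 ranged from 6719 to 23476 CPM in sham and from 8499 to 26634 CPM in IRI TECs (log2 fold change 0.74 ± 0.31 SE, adjusted p = 0.291, and 1.05 without TEC Sham Control replicate 1). Ftl1 ranged from 9987 to 17991 CPM and from 6965 to 14810 CPM (log2 fold change -0.41 ± 0.21 SE, adjusted p = 0.393). Nqo1 ranged from 11 to 347 CPM and from 37.9 to 208 CPM, with a log2 fold change of 0.07 ± 0.58 (SE).

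Marker RNA also moved in TECs. All 10 proximal tubule markers had fold changes below 0 after IRI, 6 of them at an adjusted p under 0.05, with a median of -2.27. The neutrophil markers summed to at most 32.4 CPM in sham and to 34.6 to 109 CPM in IRI TECs, with Ly6g at 0 in all sham and at most 1.4 CPM in IRI libraries. The erythroid markers, whose cells are rich in ferritin and heme, summed to 4.4 to 739 CPM in sham and 72.8 to 832 CPM in IRI TECs. Their part in the results for the members was not tested.

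The proportion of the ferritin chains was higher on the heavy side after IRI in both cell types. In TPM within a library, Fth1 to Ftl1 was 1.38, 0.71, 0.726, 0.709 and 0.707 in the sham PMN libraries and 1.52, 1.84, 1.9, 1.68 and 2.99 in the IRI PMN libraries. In TECs it was 1.11, 0.599, 0.574, 0.559, 0.555 and 0.543 after sham surgery and 1.51, 1.32, 1.37, 1.74 and 0.921 after IRI. The PMN groups did not overlap, and the TEC groups overlapped only through TEC Sham Control replicate 1 (1.11) and TEC IRI RIPC replicate 3 (0.921). The ratio was examined after the values were seen and has no test. Ftl1 shares 50.9% of its stretches of 50 bases with other annotated genes, 47.3% with Ftl1-ps1, so its level is uncertain in so far as reads were split between them. Ftl1-ps1 itself held 223 to 1014 CPM. Fth1 shares 1.59% of its stretches.

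**Figure D4:**
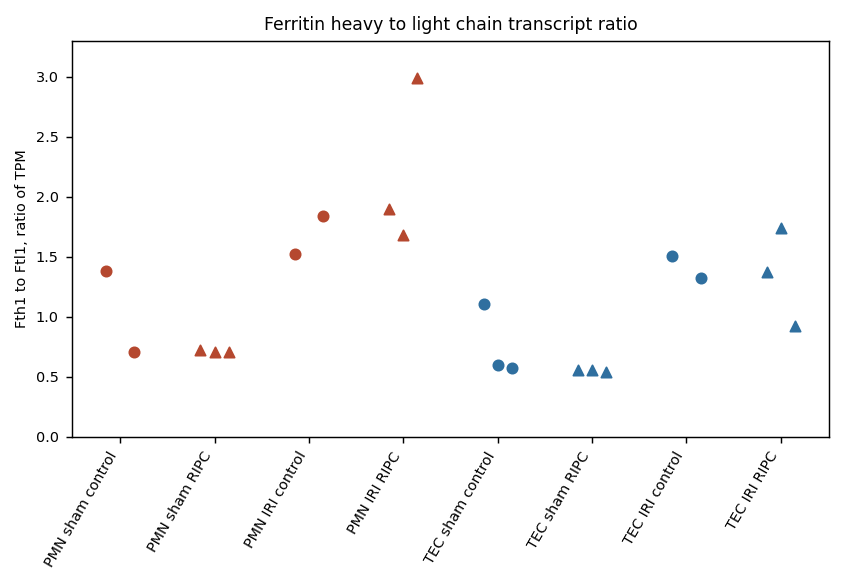
Ratio of Fth1 to Ftl1, each in TPM, in every library, with PMNs in red, TECs in blue, circles for control and triangles for RIPC. In PMNs the sham libraries lie at 0.707 to 1.38 and the IRI libraries at 1.52 to 2.99, and in TECs the library at 1.11 is the only sham library above 0.599.

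RIPC was compared with control separately after sham surgery and after IRI, since the study asked what preconditioning changes. No member passed in any of the 4 comparisons with edgeR, and none did with DESeq2. After sham surgery and IRI, DESeq2 called 813 and 429 of 25002 genes in PMNs and 425 and 699 of 25917 genes in TECs. Across all genes edgeR called 0.00400% and 0% in PMNs and 0% and 0.00386% in TECs, after sham surgery and IRI in that order. At an unadjusted p under 0.05 the members numbered 2, 0, 3 and 2 in the same order, against 4.60%, 2.72%, 4.53% and 4.35% of all genes. In sham PMNs these were Hmox1 (log2 fold change -1.61 ± 0.65 SE) and Slc7a11 (-0.83 ± 0.37 SE), both lower with RIPC. The Hmox1 value was -0.51 without PMN Sham Control replicate 1. Slc7a11 and Fth1 did not overlap between those groups and were lower with RIPC, against 8.01% of all genes. On coding transcripts alone Slc7a11 did overlap, at 45.6 and 26.2 CPM in PMN Sham Control and 27.1, 0.842 and 0.0938 CPM in PMN Sham RIPC. In sham TECs the members were Hmox1 (-5.33 ± 1.54 SE), Nqo1 (-1.87 ± 0.80 SE) and Txnrd1 (-1.47 ± 0.64 SE). The Hmox1 value rested on TEC Sham Control replicate 1 and was -0.52 without it. Nqo1 and Txnrd1 were -1.01 and -0.49 without it. In the same sham TEC comparison all 5 erythroid markers tested were below 0, at a median of -5.11, and 6 of 7 tubular injury markers, at a median of -1.27. In sham PMNs 9 of 10 neutrophil markers were below 0 with RIPC, at a median of -0.98. The part of these markers was not tested.

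After IRI the RIPC and control libraries separated for some members, with Gclm and Fth1 in opposite directions in the 2 cell types. With edgeR no member passed the test of a different RIPC effect between the cell types, and 0% of all genes did. In PMNs the RIPC libraries were above the control libraries without overlap for Hmox1, Gclm, Txnrd1 and Fth1, against 6.87% of all genes, and below for Srxn1, against 9.54%. In TECs the RIPC libraries were below the control libraries without overlap for Nqo1, Gclm, Srxn1, Fth1 and Ftl1, against 8.97% of all genes, and above for Slc7a11, against 7.89%. These separations are in CPM. In TPM Hmox1 overlapped in PMNs, and Nqo1, Srxn1, Fth1 and Ftl1 overlapped in TECs. Gclm did not overlap in TPM in either cell type. The Fth1 margin in TECs was narrow even in CPM, at 20778 in TEC IRI Control replicate 2 and 20591 in TEC IRI RIPC replicate 2. On coding transcripts alone Slc7a11 overlapped, at 8.76 and 8.62 CPM in TEC IRI Control and 2.14, 0.136 and 17.4 CPM in TEC IRI RIPC. Gclm is the clearest case, at 5.42 and 7.05 CPM against 60.4, 32.8 and 49 CPM in PMNs and at 303 and 231 CPM against 110, 45.2 and 86.4 CPM in TECs. Its log2 fold changes were 2.89 ± 1.31 (SE, adjusted p = 0.920) in PMNs and -1.72 ± 0.58 (SE, adjusted p = 0.778) in TECs. Gclm shares 3.24% of its stretches of 50 bases with Ppia, a very abundant gene, and its reads were spread over at least 4 transcripts. Srxn1 was lower with RIPC in both cell types, at -4.23 ± 2.05 (SE) and -1.24 ± 0.70 (SE), with adjusted p of 0.920 and 0.778. The other member at an unadjusted p under 0.05 in TECs was Ftl1 (-0.68 ± 0.32 SE). Its value was -0.53 without TEC IRI RIPC replicate 3. All 5 erythroid markers tested were below 0 in the PMN comparison, at a median of -2.35, and above 0 in the TEC comparison, at a median of 0.61, where 6 of 8 distal tubule markers were also above 0 at a median of 2.96. The part of these markers was not tested.

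**Figure D5:**
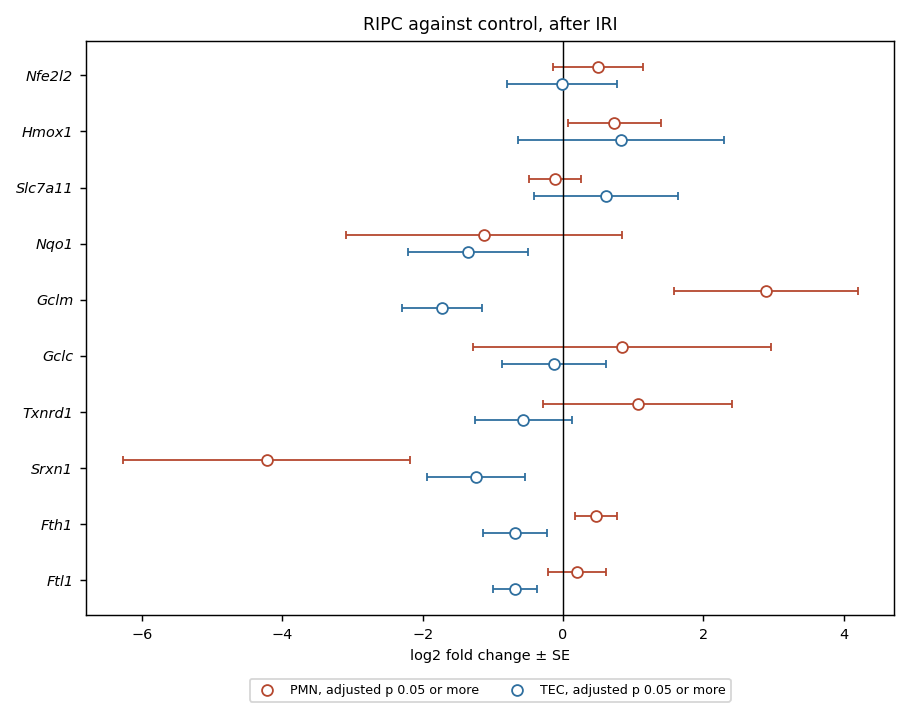
Log2 fold change of RIPC against control after IRI for each gene, with bars of 1 SE, PMNs in red and TECs in blue. All points are open, since no gene passed an adjusted p of 0.05, and Gclm lies at 2.89 in PMNs and at -1.72 in TECs.

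The difference between the RIPC effects after IRI and after sham surgery was fitted as an interaction in each cell type. No member passed with DESeq2, which called 669 genes in PMNs and 597 in TECs. None passed with edgeR either, where 0% of all genes did. At an unadjusted p under 0.05 Hmox1 was the only member, against 5.74% of all genes in PMNs and 7.21% in TECs, at 2.34 ± 0.94 (SE) in PMNs and at 6.16 ± 2.18 (SE) in TECs. The first became 1.26 without PMN Sham Control replicate 1 and the second 1.31 without TEC Sham Control replicate 1.

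PMNs and TECs were then set against each other, which compares the levels in their libraries, RNA of other cells included. In sham PMNs the summed proximal tubule markers reached 12351 CPM (PMN Sham Control replicate 2), above the lowest sham TEC library at 11470 CPM. The macrophage markers summed to 2876 to 9466 CPM in sham PMNs. The part of this RNA in the sham comparison was not tested. The libraries are those of the comparisons above. After sham surgery Srxn1 and Ftl1 were lower in PMNs, which made 2 of 10 members against 2.62% of all genes. Srxn1 differed by -7.44 ± 1.2 (SE, adjusted p = 0.000981) on the log2 scale, with no PMN library above 0.447 CPM and no TEC library under 12.7 CPM. Ftl1 differed by -1.02 ± 0.27 (SE, adjusted p = 0.0490), at 3587 to 9867 CPM in PMNs and 9987 to 17991 CPM in TECs. The Ftl1 call was lost in 11 of 21 fits that left out a library, with a value of -0.86 without PMN Sham Control replicate 1. Slc7a11 was higher in every PMN library (50 to 98.2 CPM) than in any TEC library, at 1.95 ± 0.54 (SE, adjusted p = 0.0593). On its coding transcripts alone these groups overlapped, with PMN Sham RIPC replicate 3 at 0.0938 CPM and TEC Sham RIPC replicate 2 at 0.591 CPM. Nfe2l2 differed by 1.48 ± 0.54 (SE, adjusted p = 0.172). Slc7a11 (adjusted p = 0.00112) and Nfe2l2 (adjusted p = 0.0428) passed as higher in PMNs with DESeq2, which called 4753 genes here. Txnrd1 differed by -1.66 ± 0.77 (SE, adjusted p = 0.271), by -4.45 (adjusted p = 0.00567) without PMN Sham Control replicate 1 and by -1.12, which did not pass, without TEC Sham Control replicate 1.

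After IRI Slc7a11 was higher in PMNs, and Srxn1 and Gclm were lower, 3 of 10 members against 2.67% of all genes. Slc7a11 differed by 4.01 ± 0.65 (SE, adjusted p = 0.00134), a 16.1-fold difference, at 380 to 742 CPM in PMNs and 25.3 to 57 CPM in TECs. Srxn1 differed by -4.54 ± 1.02 (SE, adjusted p = 0.0167) and Gclm by -3.09 ± 0.74 (SE, adjusted p = 0.0238). Without PMN IRI Control replicate 1 the adjusted p of these last genes was 0.141 and 0.162, and that of Gclm was also above 0.05 without PMN IRI Control replicate 2 (0.109) or TEC IRI Control replicate 1 (0.0532). Nfe2l2 was higher in each PMN library (336 to 821 CPM) than in any TEC library (39.5 to 241 CPM), at 1.72 ± 0.59 (SE, adjusted p = 0.160), and Gclc was lower in each, at -3.44 ± 1.14 (SE, adjusted p = 0.142). Both passed with DESeq2 (adjusted p = 0.0153 for Nfe2l2 and 0.00723 for Gclc), which called 3725 genes here. Tubular RNA was present in PMN libraries at 621 to 1060 CPM of summed proximal tubule markers after IRI, and its part in these values was not tested.

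Whether IRI acted differently in the 2 cell types was tested directly. With edgeR no member passed, and 0% of the 31769 genes did. With DESeq2 1 member passed, Slc7a11, at -2.11 (adjusted p = 0.0390), and 2395 of the 31769 genes did. Past an unadjusted p of 0.05 were 4 members, against 9.76% of all genes, namely Slc7a11 (-2.06 ± 0.79 SE), Hmox1 (-3.06 ± 1.32 SE) and Srxn1 (-2.90 ± 1.24 SE), with smaller IRI effects in TECs, and Gclm (2.01 ± 0.93 SE), with a less negative effect there. The Hmox1 difference was -0.60 without TEC Sham Control replicate 1, and the Gclm difference was 0.89 without PMN Sham Control replicate 2. The Srxn1 difference was -5.74 without PMN Sham Control replicate 1. It is set against 0 to 11 reads in sham PMNs, so its size depends on the model. The Srxn1 medians were 0.182 CPM in sham and 4.16 CPM in IRI PMNs, and 27.9 and 222 CPM in TECs. Past the threshold in PMNs and not in TECs is thus not a shown difference for Hmox1 or Slc7a11 with edgeR.

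Other genes of the pathway were followed as lists. Of 10 regulators of NRF2, including Keap1, Bach1 and the small MAF genes, none passed in PMNs after IRI or in TECs. Their median log2 fold change was 0.69 in TECs, and in PMNs 8 of 10 were above 0. Of 32 other NRF2 targets 30 could be tested in PMNs, where none passed (median -0.52), and all 32 in TECs, where only Cat passed (median -0.29). Cat, the catalase gene, fell from 718 to 1556 CPM in sham to 287 to 589 CPM in IRI TECs, by 1.60 on the log2 scale with an SE of 0.32 and an adjusted p of 0.0273. Of 23 iron handling genes, 20 in PMNs and 21 in TECs were tested, and none passed (medians 0.41 and 0.01). At an unadjusted p under 0.05 in PMNs, against 11.8% of all genes, were 4 regulators, all higher, 4 other targets higher and 5 lower, and 5 iron genes higher and 2 lower. In TECs, against 15.0% of all genes, they were 3 regulators, all higher, 8 other targets higher and 5 lower, and 2 iron genes higher and 5 lower.

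Between the cell types these lists held more calls, as did all genes (2.62% after sham surgery and 2.67% after IRI). After sham surgery Keap1, the sensor that holds NRF2 down, was lower in PMNs (adjusted p = 0.0105), at 0 to 0.0813 CPM against 8.27 to 46.6 CPM in TECs. Cat, Prdx1 (a peroxiredoxin), Gss (glutathione synthetase) and Abcc4 (an efflux pump) were lower as well, with values of -2.47 ± 0.52 (SE, adjusted p = 0.00958) for Cat and -1.46 ± 0.36 (SE, adjusted p = 0.0323) for Prdx1. Among iron genes Slc11a1 (the phagosomal metal carrier), Hp (haptoglobin) and Lcn2 (lipocalin 2, which binds iron carriers of bacteria) were higher in PMNs and Slc40a1, the iron exporter ferroportin, was lower. Slc11a1 read 140 to 390 CPM in sham PMNs and at most 1.33 CPM in sham TECs. After IRI Slc11a1 and Hp were again higher, Cp (ceruloplasmin) was lower, and 7 of 32 other targets were lower, led by Prdx1 at -3.34 ± 0.41 (SE, adjusted p = 0.00012), with Ugdh, Cat, Gstm1 and Gstp1 next.

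The gene most like a member, given here for 6 of the members, was sought by Pearson's r of log2 CPM within a cell type, as a description of these libraries, which share their surgery groups. Over 10 PMN libraries it was Cd14, a coreceptor of TLR4, for Hmox1 (0.985), Relb, a subunit of NF-κB, for Slc7a11 (0.986), Ets2, a transcription factor, for Fth1 (0.975) and Hcst for Nfe2l2 (0.952). Over 11 TEC libraries it was Eif6, a translation factor, for Srxn1 (0.955) and Ftl1-ps1 for Ftl1 (0.951).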

How the data were processed

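The libraries were made from sorted cells by poly(A)-primed reverse transcription, template switching and PCR, and read as single-end reads. According to the study's methods and the submitters' processing notes, the authors trimmed reads with Trim Galore 0.6.4 and quantified transcripts with Salmon 1.0.0 against Gencode mouse release 23 on mm10, with a correction for GC content. The deposited tables give Salmon's estimated counts (NumReads) and effective length per transcript, in 2 tables for each of 21 libraries. The 2 tables of a library differed by less than the sampling noise of independent reads (median squared difference over sum 0.0122 to 0.0703, against 0.455), so they are not independent reads and their sum overstates the depth.

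Estimated counts were added over a gene's transcripts (Gencode 21, GRCm38; 0.139% to 0.255% of reads had no match) and over both tables, then rounded. The study tested gene counts with DESeq2, and edgeR is the main test here. Genes of the sex chromosomes and mitochondria were left out, as in the study. CPM used TMM factors over all 21 libraries, and TPM used effective lengths. edgeR 4.0.16 (quasi-likelihood F test, filterByExpr, TMM, Benjamini-Hochberg threshold 0.05 over all genes) was run on PMNs, on TECs and on all libraries, with IRI effects averaged over control and RIPC. SE is the fold change over the square root of F. Alternatives were DESeq2 1.42.0, other scalings and filters, a length offset, a replicate block and each library left out. Contrasts of the control or RIPC groups alone, within the same fits, were also taken. The use of 1 of the 2 tables was added after the data were seen. The fit was run on simulated data, where recovery of the set changes was required only at a low spread between samples. The spread in these data was far higher, with a common biological coefficient of variation of 1.65 in PMNs, 1.54 in TECs and 1.67 over all libraries. The requirement therefore does not show how often such changes would be found here.

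The members and lists were chosen with earlier results of these data known. The text names all members, list genes with an adjusted p under 0.05 (at most 5 a direction), and most alike genes. Promoters came from RefSeq. Counts at 3 reads or under were taken as the detection floor.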

Additional observations from a re-analysis of the deposited data

Results flagged for a closer look

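RIPC effects on Gclm pointed in opposite directions in the 2 cell types after IRI: every RIPC library was above every control library in PMNs and below in TECs. The difference of the effects, TEC minus PMN, was -4.65 on the log2 scale (unadjusted p = 0.00366, edgeR adjusted p = 0.764), so it did not pass.

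Fth1 showed the same arrangement after IRI in CPM, with a difference of -1.22 (edgeR adjusted p = 0.764). In TECs the margin was narrow, at 20591 CPM in TEC IRI RIPC replicate 2 and 20778 CPM in TEC IRI Control replicate 2. In TPM the TEC groups overlapped.

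Fth1 in PMNs was also lower with RIPC after sham surgery and higher with RIPC after IRI, without overlap. The sham margin was narrow in CPM, at 7087 in PMN Sham RIPC replicate 1 and 7160 in PMN Sham Control replicate 1. In TPM these libraries held 5550 and 6435. The interaction was 0.94 (edgeR adjusted p = 0.719).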

How the results depend on the processing

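Of 46 results for single members over 1025 alternative fits, 939 kept their direction and side of the threshold, 37 lost a call, 29 gained one and 20 changed sign. Counts of members called, with 2 in PMNs and 1 in TECs for IRI, 2 and 3 for PMNs against TECs after sham surgery and IRI, and 0 elsewhere, moved as follows. Without a filter on low counts they were 5 and 2 for IRI, 1 for RIPC in sham TECs, 1 for the TEC interaction and 1 for the difference in IRI effect. With at least 10 counts in every library TECs after IRI had 3. With DESeq2 they were 4 and 2 for IRI, 4 and 5 between cell types and 1 for the difference in IRI effect. Among all genes DESeq2 called 4753 and 3725 between cell types and 2395 for that difference. In the contrasts of control groups alone IRI had 0 in each cell type, against 0% of all genes in PMNs and 0.00386% in TECs. In that of RIPC groups alone TECs had 0, against 0.0965%. Leaving out 1 library gave 0 to 3 and 0 to 2 for IRI and 1 to 3 and 1 to 4 between cell types. One of the 2 tables alone changed none of these counts. All-gene calls for IRI ranged from 0 to 1955 in PMNs (104) and from 1 to 2234 in TECs (363), highest with DESeq2.

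The replicate block gave 1 for IRI in PMNs and 1 in each comparison of cell types. Within a cell type, samples of different groups with the same number did not pair. Their deviations correlated at -0.021 to 0.024 in PMNs and -0.090 to 0.110 in TECs. Whether PMN and TEC samples of a group came from the same animals was not checked. The comparisons of cell types took all libraries as independent. Under the block Nqo1 and Gclc in PMNs turned to 0.07 and 0.96.

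Members without a call changed sign elsewhere. In control groups alone Hmox1 was -2.91 and Nqo1 -0.19 in TECs, and in RIPC groups alone Gclc was 0.56 and Ftl1 0.09 in PMNs. Leaving out 1 library gave -0.31 to 0.32 for Ftl1, -0.62 to 1.25 for Gclc and -1.10 to 0.96 for Nqo1 in PMNs, and -0.84 to 2.59 for Hmox1 and -0.20 to 0.54 for Nqo1 in TECs. The cause was not tested. Srxn1 held 0 to 11 reads in sham PMNs, so depth limits the size of its fold change there.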
